A study of Mus musculus with 6 samples.

Results

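The liver mRNAs of NRF2, of its inhibitor KEAP1 and of 8 stress genes that NRF2 is known to induce were followed in mice fed a methionine- and choline-deficient (MCD) diet, with or without intestinal *Mttp*. The 10 genes were chosen by name, as Nfe2l2 (which encodes NRF2), Keap1, Nqo1, Cbr3, Ephx1, Txnrd1, Srxn1, Slc7a11, Hmox1 and Osgin1, out of 41388 genes with a count, and all 10 were among the 17287 genes with enough reads for a test. The choice was made with earlier results of these data known. At 3 weeks of diet, Ephx1 was the only gene of the 10 to pass the test, and it was lower in *Mttp-IKO* liver. Nfe2l2 and Keap1 themselves differed little between genotypes. The SD among *Mttp-IKO* pools exceeded the difference of the genotype means for Slc7a11, Cbr3, Srxn1, Txnrd1, Nqo1 and Keap1.

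Both genotypes were C57BL/6 mice that carried floxed *Mttp* alleles and a tamoxifen-inducible Cre driven by the Villin promoter, which is active in intestinal epithelium (*Mttp* f/f Villin Cre ER T2). *Mttp-IKO* mice had received tamoxifen for 5 days and control littermates vehicle, so the GEO label "wild type" stands for vehicle-injected mice with intact but floxed *Mttp*, and tamoxifen and the deletion cannot be told apart. Mice were male and 12 to 16 weeks old when the diet began, 3 weeks after the injections. The fast before livers were collected was 4 h in the sample records and 4 to 6 h in the paper's methods. Each of the 3 control and 3 *Mttp-IKO* samples combined the liver RNA of 3 to 4 mice by the paper's methods, with 12 livers per genotype in the sample records. Every p-value below measures the spread between these pools, not between mice. No chow-fed group was analysed here, so the values give no measure of what the diet itself did.

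NRF2 is a transcription factor that KEAP1 holds in the cytoplasm and hands to a ubiquitin ligase for degradation. Oxidants and electrophiles modify cysteines of KEAP1, NRF2 then accumulates, enters the nucleus with a small MAF protein and binds antioxidant response elements near genes for quinone reduction, glutathione and thioredoxin metabolism, conjugation of foreign compounds and heme breakdown. Much of this control acts on NRF2 protein, which was not measured, and the mRNA of the target genes is often used as a readout of it. In liver the pathway is known for its part in defence against drugs and lipid peroxidation.

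The letters just before the transcription start are shown for the members in which a script found a motif that bears on how they are induced, and for Ephx1, the member that passed the test. The windows were RefSeq promoters of GRCm38.p6, from 250 bases before to 50 after the start, and 9 of the 10 members had one or more, in 11 windows. Hmox1 was not among the entries used here. The antioxidant response element core TGACNNNGC, on either strand, was in 12.4% of 32851 promoter windows and in windows of 3 members. The AP-1 element TGANTCA, which can overlap the first motif, was in 7.81% of windows and in those of 2 members, and the amino acid response element core TGATGCAA in 0.895% and in that of Slc7a11. Sequences run 5′ to 3′ on the strand of the gene, and capitals mark the motif.
Nfe2l2, chr2:75704880-75704913, minus strand: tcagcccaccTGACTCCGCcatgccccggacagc
Txnrd1, chr10:82859099-82859137, plus strand: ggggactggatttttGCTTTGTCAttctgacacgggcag
Srxn1, chr2:152105407-152105500, plus strand: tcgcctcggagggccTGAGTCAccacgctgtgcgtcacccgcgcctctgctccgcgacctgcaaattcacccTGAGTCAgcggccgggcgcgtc
Osgin1, chr8:119437035-119437071, plus strand: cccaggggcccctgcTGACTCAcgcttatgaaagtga
Slc7a11, chr3:50443638-50443694, minus strand: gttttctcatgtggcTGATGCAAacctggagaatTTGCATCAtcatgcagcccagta
Ephx1, chr1:181017570-181017819, minus strand: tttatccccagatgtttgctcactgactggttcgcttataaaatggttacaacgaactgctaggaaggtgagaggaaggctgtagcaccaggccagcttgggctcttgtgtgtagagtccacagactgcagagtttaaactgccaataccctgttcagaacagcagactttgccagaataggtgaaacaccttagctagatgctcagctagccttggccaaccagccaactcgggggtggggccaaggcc

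The antioxidant core lay 240 bases before the start of Nfe2l2 and, on the reverse strand, 92 bases before that start of Txnrd1 at which the gene begins in the count files. The other Txnrd1 windows held none of the motifs. Srxn1 held an AP-1 element 102 and again 45 bases before its start, and Osgin1 held it 97 bases before. Srxn1 had the antioxidant core too, on the reverse strand and just after the start. The antioxidant core was searched with C after TGA only, so sites with G there, as in TGAGTCA, were counted as AP-1 at most. Slc7a11 held the amino acid response core in both orientations, 66 and 47 bases before the start. None of these letters was found in the Ephx1 window. A match describes the sequence and is not shown to be bound, and enhancers farther away were not searched. The RefSeq starts of Ephx1 and Osgin1 lie inside the gene spans of the count files, which reach further upstream.

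The pools held 25271585 to 36238734 reads on genes, and levels are given in CPM, the count of a gene relative to its library's size, after TMM scaling, which sets libraries to a common level using the bulk of genes. Genotypes were compared with edgeR's quasi-likelihood test, with Benjamini-Hochberg adjustment over the 17287 genes. Of these, 4.01% had an adjusted p under 0.05 (3.09% lower and 0.92% higher in *Mttp-IKO*), and 31% did not overlap between the 3 control and 3 *Mttp-IKO* pools. Liver Mttp stood at 90.4 to 186 CPM in control and 129 to 161 CPM in *Mttp-IKO* pools, which does not check the labels, since the deletion is intestinal. Hepatocyte markers (7 genes, Alb among them) summed to 55208.6 to 90892.5 CPM in control and 108693.4 to 164258.9 CPM in *Mttp-IKO* pools, with most of each sum from Alb. By edgeR 0 of the 7 passed, 3 were higher at an unadjusted p under 0.05 (42.9%, against 9.53% of all genes higher), and 2 had a log2 fold change below 0. Control pool 2 and *Mttp-IKO* pool 3 stood apart. Striated muscle markers summed to 553 CPM in control pool 2 against 66.5 and 0.875 CPM in the other control pools and at most 1.03 CPM in *Mttp-IKO* pools. *Mttp-IKO* pool 3 held fewer reads on short genes (median log2 difference from the other *Mttp-IKO* pools of −1.10 for genes under 1000 nt, −0.46 for 1000 to 2000 nt and 0.19 from 4000 nt).

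Recruited macrophage markers (7 genes) summed to 837, 272 and 838 CPM in control pools 1, 2 and 3 and to 114, 183 and 157 CPM in the *Mttp-IKO* pools. Of these, Ccr2, Cx3cr1, Itgax and Trem2 fell (edgeR adjusted p = 0.0151 to 0.0293). Stellate cell markers (7 genes) summed to 1217.5, 607 and 964 CPM against 275, 307 and 254 CPM. Of these, Col1a1, Col3a1, Lrat, Pdgfrb and Acta2 fell (edgeR adjusted p = 0.0111 to 0.0378). Des, in that list, was at 68.1 CPM in control pool 2 against 19.1 and 12.5 CPM in the other control pools. Of 7 Kupffer cell markers, which summed to 359 to 509 CPM in control and 293 to 670 CPM in *Mttp-IKO* pools, Timd4 rose and the others did not pass, with 2 lower and 3 higher, Timd4 among them, at an unadjusted p under 0.05 (71.4%, against 23% of all genes). By edgeR, 0 endothelial (5 tested, 0 at an unadjusted p under 0.05, against 23% of all genes), cholangiocyte (4 and 1), neutrophil (2 and 0), erythroid (5 and 0), striated muscle (2 and 2), small intestine (2 and 0) and pancreas (1 and 0) markers passed. Their sums ranged, in control and *Mttp-IKO* pools, over 292 to 350 and 304 to 355 CPM for endothelial, 29.5 to 45.1 and 21.9 to 40.7 CPM for cholangiocyte, 329 to 472 and 237 to 394 CPM for erythroid, and at most 42.0 CPM for small intestine, 8.38 CPM for neutrophil and 6.29 CPM for pancreas markers. Without *Mttp-IKO* pool 2, 0 of all genes passed by edgeR, so every marker call was lost there. Without control pool 1, control pool 3 or *Mttp-IKO* pool 1, 24, 21 and 55 of all genes passed, against 694 with all pools. The part that the cell types had in the values below was not tested, and in bulk liver fewer cells of a type and less RNA per cell cannot be told apart.

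The regulators were compared first. Nfe2l2 (ENSMUSG00000015839, GRCm38 chr2:75675513-75704641, minus strand) encodes NRF2. It was at 73.5, 66.2 and 70.0 CPM in control pools 1, 2 and 3 and at 62.9, 65.3 and 54.7 CPM in *Mttp-IKO* pools 1, 2 and 3. The genotypes did not overlap, but the lowest control and the highest *Mttp-IKO* pool nearly met. Means were 69.9 ± 3.69 and 60.9 ± 5.56 CPM (SD, n = 3 pools each), a log2 fold change of −0.20 (SE 0.143, 95% confidence interval −0.53 to 0.13, edgeR adjusted p = 0.444).

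Keap1 (ENSMUSG00000003308, chr9:21229730-21239332, minus strand), the sensor that marks NRF2 for degradation, was at 55.7, 65.7 and 51.4 CPM in control and 67.6, 54.0 and 51.0 CPM in *Mttp-IKO* pools. The pools of both genotypes spanned the same range. The means of 57.6 ± 7.30 and 57.5 ± 8.87 CPM gave a log2 fold change of −0.00 (interval −0.40 to 0.39, edgeR adjusted p = 0.998). A gene on the other strand, Gm16754, covers 510 of 4693 exonic bases of Keap1 and held at most 38 reads in a pool, and whether counting used the strand is not stated.

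**Figure D1:**
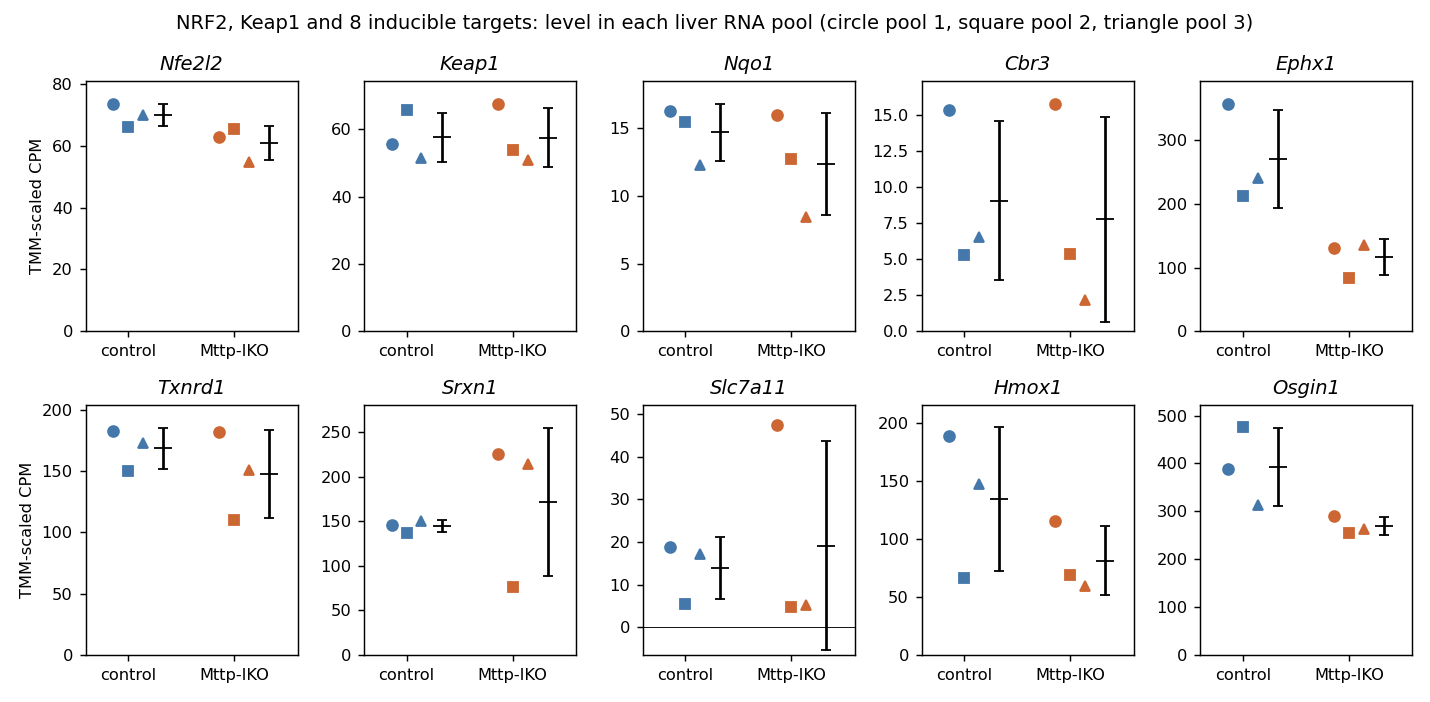
Level of each of the 10 genes (TMM-scaled CPM, linear axes that differ between panels) in each liver RNA pool of control (blue) and *Mttp-IKO* (orange) mice, with the mean and SD of 3 pools beside them. Ephx1, Osgin1 and Nfe2l2 show no overlap between genotypes, and in Slc7a11 a lone *Mttp-IKO* pool stands at 47.4 CPM against at most 18.8 CPM in the others.

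Among the enzymes that act on quinones, carbonyls and epoxides, Ephx1 was lower in *Mttp-IKO* liver, and Nqo1 and Cbr3 did not pass the test. Ephx1 (ENSMUSG00000038776, chr1:180976155-181020904, minus strand) encodes microsomal epoxide hydrolase, which opens reactive epoxides and is abundant in hepatocytes. It was at 357, 212 and 240 CPM in control and 131, 83.5 and 135 CPM in *Mttp-IKO* pools. Every *Mttp-IKO* pool was below every control pool, with a gap from 135 to 212 CPM. The mean fell from 270 ± 76.6 to 117 ± 28.7 CPM, which is 43.2% of control, with a log2 fold change of −1.21 (SE 0.269, interval −1.83 to −0.59, edgeR adjusted p = 0.0496). Its adjusted p was thus just inside the threshold, and leaving out 1 pool gave log2 fold changes of −1.38 to −0.98 and adjusted p-values from 0.0438, without control pool 2, to 0.166, so the call was kept in 1 of 6 cases. The call was also lost with limma-voom (adjusted p = 0.0583), with DESeq2 size factors in edgeR (0.0538) and with the trend over gene length removed (0.0683), whereas the DESeq2 Wald test gave an adjusted p of 0.00118. An overlapping gene on the same strand, Gm36961, shares 72 of 1950 exonic bases of Ephx1.

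Nqo1 (ENSMUSG00000003849, chr8:107388225-107403206, minus strand), a quinone reductase and a widely used marker of NRF2 activity, was at 16.3, 15.5 and 12.3 CPM in control and 16, 12.7 and 8.47 CPM in *Mttp-IKO* pools. The genotypes overlapped, and the lowest value was that of *Mttp-IKO* pool 3, in which short genes were read less (Nqo1 spans 1553 nt of exons). Means of 14.7 ± 2.12 and 12.4 ± 3.77 CPM differed by −0.24 on the log2 scale (interval −0.82 to 0.33, edgeR adjusted p = 0.593). The difference was −0.03 without *Mttp-IKO* pool 3 and −0.47 without *Mttp-IKO* pool 1.

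Cbr3 (ENSMUSG00000022947, chr16:93683215-93690990, plus strand), a carbonyl reductase, was at 15.4, 5.30 and 6.53 CPM in control and 15.8, 5.35 and 2.14 CPM in *Mttp-IKO* pools. Pool 1 of each genotype was the high pool, and the spread within *Mttp-IKO*, 7.37-fold from lowest to highest, exceeded the difference of the means. The log2 fold change was −0.23 (SE 0.674, interval −1.78 to 1.33, edgeR adjusted p = 0.872), and leaving out 1 pool moved it from −1.27, without *Mttp-IKO* pool 1, to 0.39, without control pool 1. Cbr3 is also short (1170 nt), and its lowest value was in *Mttp-IKO* pool 3.

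The genes of thiol redox metabolism did not pass the test in either direction. Txnrd1 (ENSMUSG00000020250, chr10:82859206-82897724, plus strand) encodes cytosolic thioredoxin reductase, which returns thioredoxin to its reduced state. It was at 183, 150 and 173 CPM in control and 182, 110 and 151 CPM in *Mttp-IKO* pools. The genotypes overlapped, and *Mttp-IKO* pool 2 was the lowest. The log2 fold change was −0.19 (SE 0.212, interval −0.68 to 0.30, edgeR adjusted p = 0.635), −0.01 without *Mttp-IKO* pool 2 and −0.37 without *Mttp-IKO* pool 1.

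Srxn1 (ENSMUSG00000032802, chr2:152105516-152111376, plus strand), sulfiredoxin, repairs overoxidised peroxiredoxins. It was at 146, 137 and 150 CPM in control and 225, 76.2 and 214 CPM in *Mttp-IKO* pools. The control pools lay close together, with a coefficient of variation of 4.72%, whereas the *Mttp-IKO* pools lay on both sides of them, with a coefficient of 48.3%. Means of 144 ± 6.81 and 172 ± 83.1 CPM gave a log2 fold change of 0.25 (interval −0.58 to 1.09, edgeR adjusted p = 0.713). Without *Mttp-IKO* pool 2 it was 0.61 (edgeR adjusted p = 0.172), and without *Mttp-IKO* pool 1 it was 0.01.

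Slc7a11 (ENSMUSG00000027737, chr3:50364936-50443613, minus strand) encodes the cystine carrier of system xc-, which brings in cysteine for glutathione and is induced by both NRF2 and ATF4. It had 760, 198 and 552 reads in control and 1471, 138 and 125 reads in *Mttp-IKO* pools, that is 18.8, 5.49 and 17.2 CPM against 47.4, 4.73 and 5.24 CPM. *Mttp-IKO* pool 1 was above all control pools and the other *Mttp-IKO* pools were below all of them. Means of 13.9 ± 7.29 and 19.1 ± 24.5 CPM gave a log2 fold change of 0.47 (SE 0.872, interval −1.54 to 2.48, edgeR adjusted p = 0.787), and its sign rested on that pool. Without it the log2 fold change was −1.47 (edgeR adjusted p = 0.150), and without *Mttp-IKO* pool 2 it was 0.93.

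**Figure D2:**
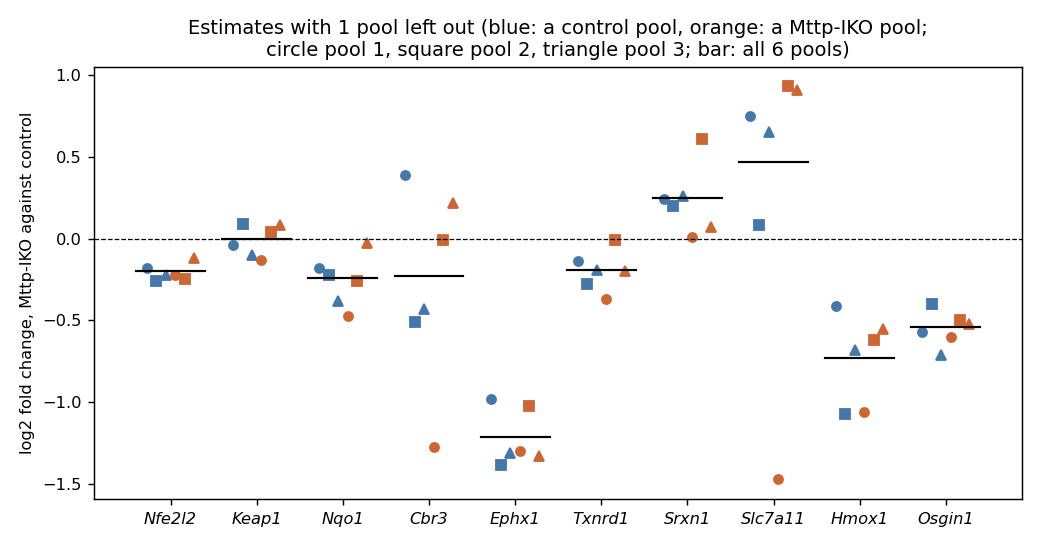
Log2 fold change (*Mttp-IKO* against control) of each of the 10 genes with all 6 pools (bar) and after leaving out each control (blue) or *Mttp-IKO* (orange) pool in turn (circle pool 1, square pool 2, triangle pool 3). Ephx1 stayed between −1.38 and −0.98, whereas Slc7a11 ran from −1.47 to 0.93 and Cbr3 from −1.27 to 0.39.

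Hmox1 and Osgin1 were lower on average in *Mttp-IKO* liver, and neither passed the test. Hmox1 (ENSMUSG00000005413, chr8:75093591-75100596, plus strand), heme oxygenase 1, breaks down heme and is expressed in macrophages as well as in stressed hepatocytes. It was at 189, 66.7 and 147 CPM in control and 115, 68.8 and 59.6 CPM in *Mttp-IKO* pools. The genotypes overlapped because control pool 2, the control pool with the lowest recruited macrophage and stellate cell marker sums, lay within the *Mttp-IKO* range. The log2 fold change was −0.73 (interval −1.63 to 0.18, edgeR adjusted p = 0.309), −1.07 without control pool 2 (edgeR adjusted p = 0.118) and −0.41 without control pool 1. The share of macrophages in these values was not tested.

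Hmox1 was the only member with quantitative PCR primers in the study, and they are shown because they mark the stretch of mRNA by which it was measured a second way. Both match a single mouse gene and give a product of 63 nt at chr8:75097224-75097286, within exon 3 of 5 (GENCODE M21). The paper names Hmox1, as an oxidative stress modifier, among the mRNAs it found altered and followed by quantitative PCR. Those PCR values were not compared here.
Hmox1 forward primer: CAGCCCCACCAAGTTCAAA
Hmox1 reverse primer: TCAGGTGTCATCTCCAGAGTGTTC

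Osgin1 (ENSMUSG00000074063, chr8:119434124-119446256, plus strand), an oxidative stress-induced growth inhibitor, was at 389, 475 and 313 CPM in control and 291, 254 and 262 CPM in *Mttp-IKO* pools. The genotypes did not overlap, and the *Mttp-IKO* pools lay within a narrow range. Means of 392 ± 81.4 and 269 ± 19.6 CPM, or 68.6% of control, gave a log2 fold change of −0.54 (SE 0.199, interval −1.0 to −0.08). Its unadjusted p was 0.0257 by edgeR and its adjusted p 0.159. The smallest adjusted p over the alternatives was 0.0767, with scaling by total counts, under which the median of all genes also moved, to −0.17.

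In all, 1 of the 10 members passed at an adjusted p under 0.05 (10%, against 4.01% of all genes tested and 3.09% lower), and 2, Ephx1 and Osgin1, had an unadjusted p under 0.05 (20%, against 23% of all genes in either direction and 13.5% lower). Pools did not overlap for 3 members, all lower in *Mttp-IKO* (30%, against 31% of all genes in either direction and 16.5% lower). The log2 fold change was below 0 for 8 members, against 49.5% of all genes, with a median of −0.21 over the members and 0.01 over all genes.

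**Figure D3:**
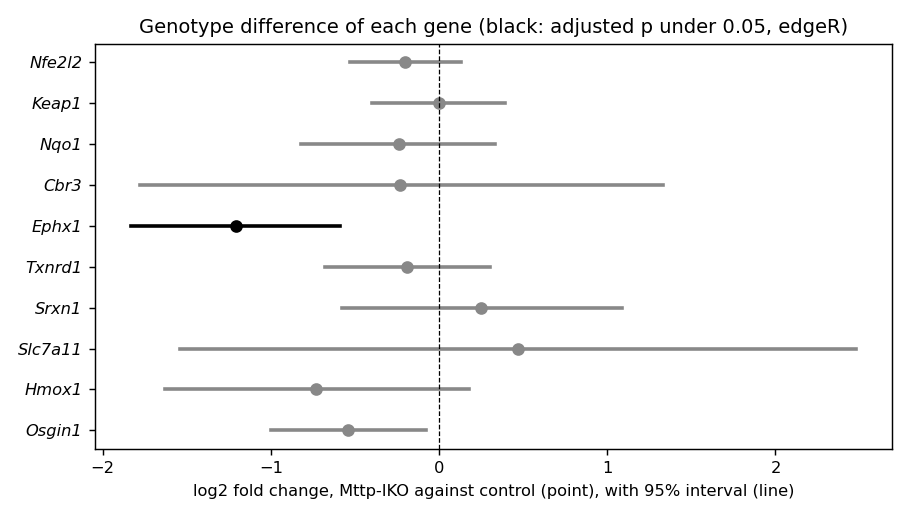
Log2 fold change of each member (*Mttp-IKO* against control, edgeR) with its 95% confidence interval. The intervals of Ephx1 (−1.83 to −0.59) and Osgin1 (−1.0 to −0.08) leave out 0, before adjustment for the number of genes tested, and that of Slc7a11 is the widest (−1.54 to 2.48).

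The high and low pools were shared by many members. Pool 1 was the highest of its genotype for 7 of 10 members in control and for 8 of 10 in *Mttp-IKO*, and it was the lowest for none of them in either genotype. In control, pool 2 was the lowest for 7 members, and in *Mttp-IKO* pools 2 and 3 were each the lowest for 5. Genes are not independent, and pool numbers were not stated to mark a shared batch. No such count over all genes is given here, so these counts do not set the members apart from other genes.

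Compared per kilobase of exons (RPKM, from TMM-scaled CPM), Osgin1 was the most abundant member on average, at 147 in control and 101 in *Mttp-IKO* pools. Ephx1 was next in control, at 134, and was at 58.1 in *Mttp-IKO*, behind Srxn1 at 61.0 (51.1 in control). Osgin1 or Ephx1 was the most abundant in every control pool, and Osgin1 in every *Mttp-IKO* pool. Hmox1 was at 62.1 and 37.5, Txnrd1 at 49.3 and 43.3, and their places in the order changed between pools, as did that of Srxn1. Nfe2l2, at 18.4 and 16.1, was sixth in all 6 pools, ahead of Keap1 at 12.9 in both genotypes. Nqo1 was at 9.45 and 7.97 and Cbr3 at 7.77 and 6.62, and these changed order in pool 1 of each genotype. Slc7a11 was the least abundant in all 6 pools, at 1.23 and 1.70.

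A wider set of 52 pathway genes in 5 lists was then counted. The lists, like the members, were chosen with earlier results of these data known. Their shares are set beside those of all genes as a description, not as a test. All 52 were tested, 36 had a log2 fold change below 0 (69.2%, against 49.5% of all genes), and 3 passed, all lower (5.77%, against 3.09% of all genes lower). At an unadjusted p under 0.05 there were 16 (30.8%, against 23%), of which 15 were lower (28.8%, against 13.5% of all genes lower). Pools did not overlap for 19 (36.5%, against 31%), of which 16 were lower (30.8%, against 16.5%). The median log2 fold change was −0.37.

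Among 12 partners, repressors and turnover factors of NRF2, 0 passed by edgeR, and the median log2 fold change was 0.03. Only 1, Sqstm1, had an unadjusted p under 0.05 (8.33%, against 23% of all genes). Sqstm1 (p62), an autophagy receptor that binds KEAP1 and is itself an NRF2 target, was at 759, 700 and 782 CPM in control and 606, 327 and 535 CPM in *Mttp-IKO* pools. All *Mttp-IKO* pools were lower, with a log2 fold change of −0.61 (SE 0.248, edgeR adjusted p = 0.192). Nfe2l1, the related factor NRF1, and Mafg, a small MAF partner, had log2 fold changes of −0.07 and 0.03 (edgeR adjusted p = 0.841 and 0.935).

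Of 10 genes for glutathione, thioredoxin and NADPH, 9 had a log2 fold change below 0, with a median of −0.34. By edgeR 0 passed, and 5 had an unadjusted p under 0.05, all lower (50%, against 13.5% of all genes lower). Prdx1, a peroxiredoxin, was at 526, 399 and 479 CPM in control and 310, 266 and 185 CPM in *Mttp-IKO* pools, without overlap (log2 fold change −0.88, SE 0.232, edgeR adjusted p = 0.0749). The subunits of glutamate-cysteine ligase, the first enzyme of glutathione synthesis, gave unlike values. Gclc, the catalytic subunit, was at 429, 316 and 254 CPM against 482, 208 and 282 CPM (−0.04, edgeR adjusted p = 0.958). Gclm, the modifier subunit, named here after its values were seen, was at 195, 181 and 176 CPM against 144, 124 and 149 CPM and did not overlap (−0.41, edgeR adjusted p = 0.173). Tkt, a transketolase of the pentose phosphate pathway, had a log2 fold change of −0.07 (edgeR adjusted p = 0.879).

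**Figure D4:**
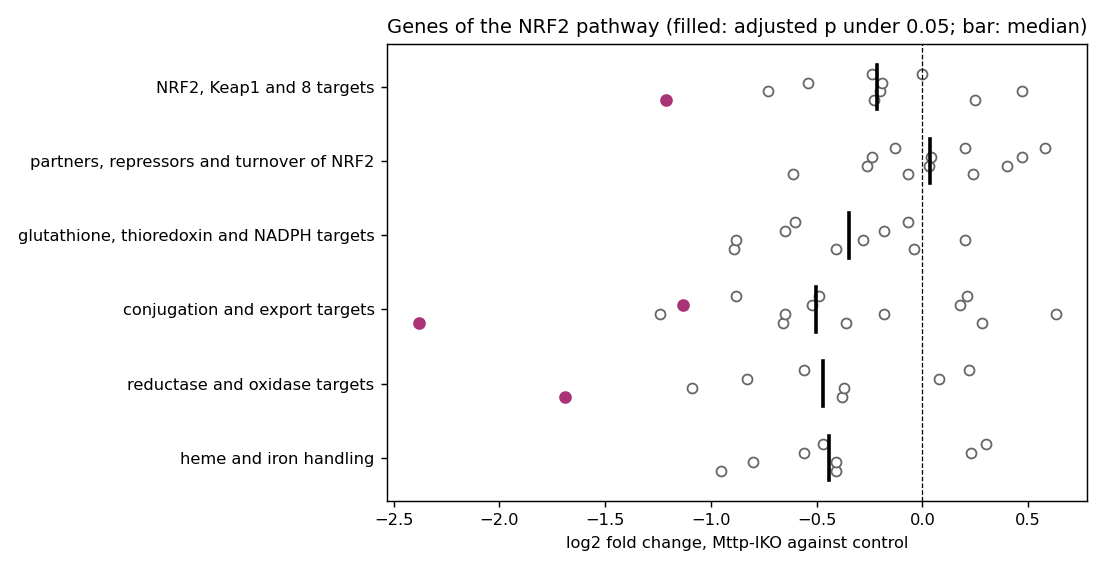
Log2 fold change of every gene tested (points) among the 10 members and in the 5 pathway lists, with filled points past an adjusted p of 0.05 (edgeR) and a bar at the median of each. Ephx1 (−1.21), Gsta2 (−2.38), Gstm3 (−1.13) and Ptgr1 (−1.69) were past the threshold, and the medians of 4 of the 5 lists lay below that of the members (−0.21).

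Among 14 genes of conjugation and export, Gsta2 and Gstm3 fell, and the median was −0.51. At an unadjusted p under 0.05 there were 5 lower and 1 higher (42.9%, against 23% of all genes). Gsta2, a glutathione S-transferase of the alpha class, was at 33.4, 17.7 and 23.0 CPM in control and 5.32, 5.38 and 3.48 CPM in *Mttp-IKO* pools, a fall from 24.7 ± 8.03 to 4.73 ± 1.08 CPM (log2 fold change −2.38, SE 0.289, edgeR adjusted p = 0.0159). It kept its call in 10 of 10 other settings and in 2 of 6 with a pool left out. Gstm3, of the mu class, fell from 203 ± 35.2 to 92.6 ± 24.7 CPM (−1.13, SE 0.242, edgeR adjusted p = 0.0459), with 243, 181 and 183 CPM against 110, 103 and 64.4 CPM. Its call was lost with limma-voom and in 5 of 6 cases with a pool left out. Gstm1, the most abundant, was at 1725.7 ± 438 and 1202.2 ± 261 CPM (−0.52, edgeR adjusted p = 0.277). These transferases have near-identical relatives, and reads that aligned to several places were left out, so their levels are uncertain. Abcc3, an exporter of conjugates named after its values were seen, was the gene with the higher unadjusted call, at 339, 242 and 268 CPM against 421, 374 and 519 CPM (0.63, edgeR adjusted p = 0.128).

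Among 8 reductases and oxidases, Ptgr1 fell, and the median was −0.47. By edgeR 3 of the 8 had an unadjusted p under 0.05, all lower (37.5%, against 13.5% of all genes lower). Ptgr1, which reduces reactive alkenals and prostaglandins, was at 4.39, 4.94 and 4.81 CPM in control and 1.90, 1.71 and 0.713 CPM in the *Mttp-IKO* group, with a log2 fold change of −1.69 (SE 0.359, edgeR adjusted p = 0.0447). It was a gene of low level, with its call lost in 5 of 6 cases with a pool left out. Aldh3a2, a fatty aldehyde dehydrogenase, did not overlap, with 472, 335 and 373 CPM against 195, 173 and 297 CPM (−0.83, edgeR adjusted p = 0.104). Cyp2a5 had a log2 fold change of −0.38 (edgeR adjusted p = 0.370). Cbr1, the close relative of Cbr3, named after its values were seen, was again highest in pool 1 of each genotype, at 110, 75.0 and 86.1 CPM against 148, 91.9 and 45.8 CPM (0.08, edgeR adjusted p = 0.925).

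Of 8 genes for heme and iron handling, 0 passed by edgeR, and the median was −0.44. Only 1 had an unadjusted p under 0.05 (12.5%, against 23% of all genes). The ferritin chains, which store iron, did not overlap. Ftl1 was at 2823.9, 2551.7 and 2702.3 CPM in control and 1714.1, 1423.7 and 1035.2 CPM in *Mttp-IKO* pools (−0.95, SE 0.236, edgeR adjusted p = 0.0658). Fth1 was at 2866.7, 2317.5 and 2783.9 CPM against 2032.4, 1870.5 and 671 CPM (−0.80, SE 0.389, edgeR adjusted p = 0.265), with its lowest value in *Mttp-IKO* pool 3 and an exon length of 866 nt. Fech, which inserts iron into protoporphyrin to form heme, was at 146, 165 and 155 CPM against 174, 191 and 208 CPM (0.30, edgeR adjusted p = 0.299).

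Because Slc7a11 is also an ATF4 target, 8 genes of that pathway were read beside it. Ddit4 rose and the others did not pass, with 4 below and 4 above 0 and a median of −0.04. By edgeR 3 of the 8 had an unadjusted p under 0.05 (37.5%, against 23% of all genes), 2 lower and 1 higher. Ddit4, a stress-induced inhibitor of mTOR signaling, was at 50.8, 29.9 and 36.4 CPM in control and 95.6, 87.2 and 75.5 CPM in the *Mttp-IKO* group, with a log2 fold change of 1.14 (SE 0.217, edgeR adjusted p = 0.0342). Its call was lost without *Mttp-IKO* pool 2, where 0 of all genes passed, and whether it was kept under the other settings is not given here. Atf4 itself was at 86.0, 97.0 and 89.7 CPM against 148, 131 and 68 CPM (0.35, edgeR adjusted p = 0.484), and Trib3, a pseudokinase, had a log2 fold change of −0.51 (edgeR adjusted p = 0.135).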

How the data were processed

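Liver RNA was depleted of ribosomal RNA and sequenced as 6 pools. The authors aligned reads with STAR 2.5.1a to GRCm38 (Ensembl release 76) and deposited, for 41388 genes, the count of uniquely aligned, unambiguous reads from featureCounts 1.4.6-p5, with no normalization. The authors also deposited CPM (count relative to the library's total) and RPKM (CPM per kilobase of gene length), which follow from the counts and were not tested. A deposited table of all pools pairs 40481 of the genes with symbols, holds the same counts, and has 276 repeated lines, which were dropped.

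Samples were grouped by their labels. The members and gene lists were chosen with earlier results of these data known. Genes passing filterByExpr (minimum count 10, minimum total 15) were scaled by TMM (factors 0.898 to 1.11) and tested by the quasi-likelihood method (functions glmQLFit and glmQLFTest) of edgeR 4.0.16 under R 4.3.3. P-values were adjusted by Benjamini-Hochberg, with a threshold of 0.05. RPKM values printed here were recomputed from TMM-scaled CPM. The script was tested on simulated data, counts with known changes. A count of 0 allows up to 3 reads, 0.0828 to 0.119 CPM, and this covers counting error only. No pair of pools of the same genotype agreed within sampling noise. The study's methods name no test for differential expression.

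Named genes are the 10 members and, from each list, those with an adjusted p under 0.05 (at most 6), filled to 3 with the genes of highest mean CPM where fewer pass. Others are said to be named after their values were seen. Primers and gene models were read against GENCODE M21, and promoters from RefSeq GRCm38.p6. Alternatives were DESeq2 1.42.0 size factors and Wald test, limma-voom (limma 3.58.1), upper quartile and total count scaling, no filter, a CPM filter (CPM of 1 in 3 pools), protein-coding genes, a replicate block, removal of the trend with gene length (loess span 0.3), a threshold of 0.1, and leaving out each pool. Figures were drawn with matplotlib 3.10.9.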

Additional observations from a re-analysis of the deposited data

How the results depend on the processing

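Of 160 values of the members' log2 fold changes under other settings, 140 kept their direction and side of the threshold, 8 kept direction but lost the call (all Ephx1), and 12 turned. Slc7a11 had no p-value by the DESeq2 Wald test and was counted among the 140 by direction alone. Keap1, at −0.00, became 0.01 with DESeq2 size factors, the DESeq2 Wald test or protein-coding genes only, 0.02 with the length trend removed, and ran from −0.13 to 0.09 with a pool left out. Slc7a11 became −0.14 with limma-voom and ran from −1.47 to 0.93 with a pool left out, and Cbr3 ran from −1.27 to 0.39. Members past the threshold numbered 1, and 0 with DESeq2 size factors in edgeR (2 at an unadjusted p under 0.05), limma-voom (2) or the length trend removed (2, with Ephx1 at −1.11), against 1 by the DESeq2 Wald test, and 0 to 1 with a pool left out (1 only without control pool 2, with 1 to 4 at an unadjusted p under 0.05). Pathway genes past the threshold numbered 3, and 7 with total counts, 9 with the DESeq2 Wald test, 5 with no filter, 5 with the length trend removed, 7 at a threshold of 0.1, and 0 to 6 with a pool left out (6 without *Mttp-IKO* pool 3; 0 without control pool 1 or 3 or *Mttp-IKO* pool 1 or 2, where 9 to 25 had an unadjusted p under 0.05). All genes past it numbered 694 (4.01% of those tested), and 1995 (11.6%) with the DESeq2 Wald test, 428 (2.48%) with limma-voom and 657 (3.8%) with DESeq2 size factors. They numbered 1019 (5.89%) with total counts, 990 (3.56%) with no filter, 872 (5.04%) with the length trend removed and 1658 (9.59%) at a threshold of 0.1. With control pool 1, 2 or 3 left out, 24, 892 and 21 passed by edgeR. With *Mttp-IKO* pool 1, 2 or 3 left out, 55, 0 and 864 passed. With a pool left out, 2476 to 4686 genes had an unadjusted p under 0.05, with 3221 where 0 passed. The causes were not tested.

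Deviations of same-numbered pools correlated at 0.139, 0.112 and 0.00698, and those of unlike-numbered pools at −0.125 to 0.0208. The main test took the pools as unpaired, and these values do not settle whether a number marks a pair. With the replicate number as a block, 592 genes passed, 1 of them a member (Ephx1, edgeR adjusted p = 0.0368) and 2 pathway genes (Ptgr1 was lost), and Slc7a11 turned to −0.17. The lowest member count was 51 reads, for Cbr3 in *Mttp-IKO* pool 3.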

Other observations

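Microsomal epoxide hydrolase and several of the transferases are also induced by the xenobiotic receptors CAR, PXR and AHR, and 11 genes of those receptors and their targets were counted. By edgeR 0 passed the threshold, and 4 had an unadjusted p under 0.05, all higher in *Mttp-IKO* (36.4%, against 9.53% of all genes higher). The log2 fold change was below 0 for 4 and above 0 for 7, with a median of 0.30. The part of these receptors in the values of Ephx1 or the transferases was not tested. Cyp2b9, a CAR target, was at 79.2, 209 and 169 CPM in control and 304, 360 and 253 CPM in *Mttp-IKO* pools, without overlap (log2 fold change 1.0, SE 0.339, edgeR adjusted p = 0.134). Cyp2b10, another CAR target, is named after its values were seen. It was at 0.843, 2.3 and 1.97 CPM against 5.35, 2.23 and 41.8 CPM, with overlap (3.27, SE 1.02, edgeR adjusted p = 0.113). Cyp3a11, a PXR target, was level (−0.00, edgeR adjusted p = 0.998), and Cyp1a2, an AHR target, had a log2 fold change of −0.62 (edgeR adjusted p = 0.514) with 156, 636 and 293 CPM in control and 194, 143 and 368 CPM in *Mttp-IKO* pools. Tiparp and Cyp1a1, AHR targets named after their values were seen, had log2 fold changes of 1.39 and −0.98 (edgeR adjusted p = 0.175 and 0.264).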
